A study of Ambystoma californiense with 99 samples.

Results

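The genes described here encode RNA-binding proteins of 3 families: the SR proteins, the heterogeneous nuclear ribonucleoproteins (hnRNPs) and the cold-inducible RNA-binding protein CIRBP. They were taken by name from the count tables of a study of tiger salamanders, as every feature named CIRBP or RBM3 or whose name starts with SRSF or HNRNP. Of 23251 features, 34 matched: 13 SR features, 20 hnRNP features and CIRBP, whereas none was named RBM3. A mean of at least 1 CPM (counts per 1000000 counted reads) was then required in the tissue, which left 33 members in brain and 32 in muscle. HNRNPK-d fell just outside in both tissues, at 0.900 CPM in brain and 0.889 CPM in muscle, and HNRNPM-a fell outside in muscle at 0.284 CPM. HNRNPK-e was just inside, at 1.28 CPM in brain and 1.1 CPM in muscle. Some names are carried by several features, 5 for HNRNPK and 2 each for HNRNPH1, HNRNPM, SRSF3, SRSF4, SRSF9 and SRSF11, and these are told apart below by the letters a to e in the order of their identifiers. The 2 features named srsf3 are AMEXTC_0340000062286 (srsf3-a) and AMEXTC_0340000120121 (srsf3-b), and CIRBP is AMEXTC_0340000046035. Reads from near-identical copies could be split between them or lost, so a feature is not the whole output of the gene it is named for.

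SR proteins carry a domain rich in arginine and serine, bind exonic enhancers and help recruit the spliceosome, and some also escort messenger RNA out of the nucleus. Many hnRNPs coat nascent transcripts and oppose or modulate splice-site choice, and others act on RNA stability or transport. Both families are known, mainly from mammalian cells, to tune their own messenger RNA through exons that lead to decay, and the activity of SR proteins depends on phosphorylation by the CLK and SRPK kinases, which heat alters in mammalian cells. CIRBP and RBM3 are known in mammals for messenger RNA that increases in mild cold and decreases in warmth.

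Animals of 2 species, the California tiger salamander Ambystoma californiense (CTS) and the barred tiger salamander (BTS), were studied with their F1 hybrids and a few backcrosses. Heated animals underwent acute warming until they could not right themselves within 30 s, and control animals did not. The age of the animals is not given in the sources used here. Whole brain and leg muscle were sequenced as stranded poly(A) libraries of 100 bp single reads. In brain there were 5 control and 5 heated CTS, 5 control and 6 heated BTS, and 13 control and 10 heated F1 libraries. In muscle there were 5 control and 5 heated CTS, 5 control and 6 heated BTS, and 13 control and 12 heated F1 libraries. In both tissues males were more frequent among heated than control CTS, and among control than heated BTS. The main fits include a sex term, whereas the ranges, ratios and correlations below are not adjusted for sex. The backcrosses gave 4 libraries a tissue and entered no test. Each library was 1 animal, and p-values below measure the spread between animals.

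Counted reads ran from 3213005 to 13506066 a brain library and from 1232774 to 20068304 a muscle library, apart from 1 heated F1 brain (animal 16, 5418 reads) and 1 heated F1 muscle (animal 11, 66186 reads). These 2 shallow libraries stayed in the tests and are left out of the levels given below. Levels are scaled CPM, that is, CPM after TMM scaling in each tissue. Tissue markers followed the labels: summed skeletal muscle markers (8 of 12 listed genes found) ranged from 121578 to 220110 CPM in muscle, against 18.9 to 1973 CPM in brain, and neuron markers (6 of 10 found) from 2235 to 8219 CPM in brain, against 0.165 to 103 CPM in muscle. The heat shock chaperone gene hsp90aa1.1 was higher in heated animals, by 2.37 on the log2 scale in brain (SE 0.40, adjusted p = 0.00126, edgeR quasi-likelihood test) and by 5.95 in muscle (SE 0.83, adjusted p = 1.89e-05). One F1 animal, number 64, is labelled control for its brain and heated for its muscle. The brain library labelled control had 636 scaled CPM of hsp90aa1.1, against at most 72.5 in the other control F1 brains. Animal 76 is BTS by its title and CTS by its genotype tag, and is counted as a heated CTS by the tag. Heated brains ranged widely in hsp90aa1.1, from 58.7 to 1472 scaled CPM in F1 and from 64.4 to 850 in CTS.

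In brain, no member passed the test for heat averaged over CTS, BTS and F1, but 28 of 33 members were lower in heated animals. Their median log2 fold change was -0.09. Among all 15496 features tested, 51.7% were lower and 0.0968% were called at an adjusted p under 0.05 (12 higher, 3 lower). At an unadjusted p under 0.05, 9 of the 33 members stood out, against 6.41% of all features. Of these 9, 5 were among the 7 members under a mean of 20 CPM in brain, and 4 were among the other 26. With DESeq2 2 members were called (srsf3-b and HNRNPK-c), and 34 of all 15496 features. The direction was shared by 12 of 13 SR features, with a median of -0.16, and by 15 of 19 hnRNP features, with a median of -0.06. Members covary between libraries, so these counts are descriptions and not independent votes.

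The member nearest to the threshold in brain was srsf3-b, 1 of 2 features named for SRSF3, the smallest SR protein, which links splicing, polyadenylation and export of messenger RNA. Control CTS brains had 59.0, 64.3, 66.6, 71.6 and 74.0 scaled CPM, and heated CTS brains had 44.8, 48.6, 49.1, 52.9 and 58.9. Control BTS brains had 48.2, 54.0, 54.5, 67.3 and 74.8, and the 6 heated BTS brains ran from 35.0 through a median of 44.8 to 58.0. The 13 control F1 brains ran from 33.9 through a median of 59.7 to 76.5, and the 9 heated ones from 34.1 through 46.7 to 59.9. In CTS the ranges did not overlap, although the highest heated value lay next to the lowest control, and in BTS 4 of 6 heated brains lay below all controls. In F1 the ranges overlapped, 8 of 9 heated brains lay below the control median, and the lowest control value, 33.9, was that of animal 64. The fitted difference was -0.37 on the log2 scale (SE 0.086) with an adjusted p of 0.0710 by edgeR over all features, above the threshold. It passed the threshold without animal 64 (-0.39, adjusted p = 0.0103), without the shallow library (-0.37, adjusted p = 0.0386), with DESeq2 (-0.36, adjusted p = 0.000346), and in 5 of 21 fits that each left out 1 CTS or BTS animal. Among the members, SRSF4-b and SRSF6 also had ranges in CTS brain that did not overlap between treatments. How many of all features separate in this way was not counted.

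The second feature of the same name, srsf3-a, differed far less between treatments in brain. Its control CTS brains had 45.6, 48.1, 51.1, 51.2 and 57.9 scaled CPM and its heated ones 32.0, 39.2, 40.7, 50.8 and 54.6, and the treatments overlapped in CTS, BTS and F1 alike. The log2 difference was -0.08 (SE 0.087, adjusted p = 0.944). Because both features are counted in the same libraries, their ratio does not depend on scaling. In F1 brains the log2 ratio of srsf3-b to srsf3-a was 0.27 ± 0.17 (SD, n = 13) in controls and 0.06 ± 0.14 (n = 9) in heated animals. All 9 heated values lay below the control median, with an exact two-sided permutation p of 0.00830. Adjusted over the 12 ratio tests made, this came to 0.0996, and without animal 64 to 0.00768. In BTS brains the ratio was 0.48 ± 0.62 (n = 5) in controls and -0.05 ± 0.20 (n = 6) in heated animals, with an exact permutation p of 0.0260 and an adjusted p of 0.156, which does not pass. In CTS brains it was 0.40 ± 0.13 and 0.24 ± 0.25 (n = 5 each, exact permutation p = 0.294). The ratio was set up after the levels had been seen.

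CIRBP, the gene that marks the response to cold in mammals, had no call in brain. Control CTS brains had 1529, 1594, 1904, 2628 and 3073 scaled CPM, and heated CTS brains had 1573, 1592, 1600, 1713 and 1972. Control BTS brains had 1271, 1451, 2123, 2790 and 3069, and the 6 heated ones ran from 1089 through a median of 1631 to 2692. Control F1 brains ran from 1380 through 1908 to 2875, and heated F1 brains from 1273 through 1592 to 3124. The treatments overlapped in each genotype, and the heated CTS brains were the most alike, with an SD of 167 against 678 in controls. Among the 9 heated F1 brains, 5 lay between 1273 and 1592 and 4 between 2324 and 3124, so that the group spanned the whole control range. The log2 difference averaged over genotypes was -0.24 (SE 0.16, adjusted p = 0.887), and it stayed between -0.29 and -0.19 in the 21 fits that left out 1 animal.

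**Figure D1:**
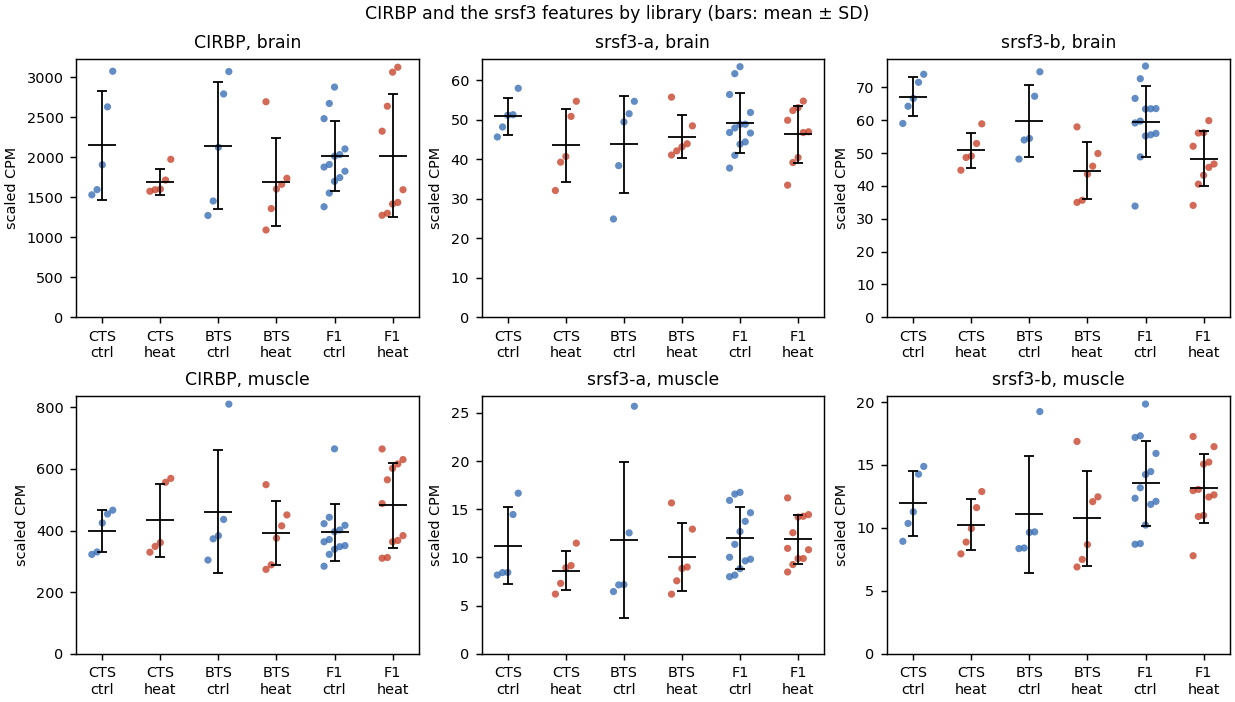
Scaled CPM (vertical axes, from 0) of CIRBP, srsf3-a and srsf3-b in each brain and muscle library of control (blue) and heated (red) CTS, BTS and F1 animals; bars are mean ± SD, and the 2 shallow libraries are not drawn. In brain, srsf3-b runs from 59.0 to 74.0 in control CTS and from 44.8 to 58.9 in heated CTS, whereas CIRBP overlaps between treatments in each genotype.

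Of the other SR features in brain, SRSF4-a, which has the most reads of the SR features there, had a log2 difference of -0.22 (SE 0.078, adjusted p = 0.498), which did not pass. srsf1a, named for SRSF1, an SR protein that also acts in 5′ splice-site choice, was at -0.18 and did not pass either. SRSF4-b and SRSF11-a, features with few reads, had log2 differences of -0.54 (adjusted p = 0.339) and -0.56 (adjusted p = 0.498). The 5 heated CTS brains had 1.99, 3.04, 3.17, 4.23 and 4.73 scaled CPM of SRSF4-b, below the controls at 6.48, 6.84, 6.97, 9.04 and 9.47, whereas in BTS and F1 the treatments overlapped. Within CTS alone that difference was -1.17 (SE 0.32), with an adjusted p of 0.733. srsf11-b and SRSF6, next to SRSF4-a in reads among the SR features, had log2 differences of -0.09 and -0.18. All 5 heated CTS brains lay below the controls for SRSF6, and 3 of 6 heated BTS brains did. In F1, 1 of 9 heated brains lay below all controls for SRSF6, and 2 of 9 lay below the control median.

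Among hnRNP features in brain, the 3 with the smallest p were again features with few reads. HNRNPK-c had a log2 difference of -0.59 (SE 0.15, adjusted p = 0.118), HNRNPK-e of -0.84 (SE 0.27, adjusted p = 0.411) and HNRNPA0 of -0.57 (SE 0.22, adjusted p = 0.576). HNRNPK-e, at a mean of 1.28 CPM, lay close to the limit for members, which could favour a lower value in heat. hnRNP K binds C-rich RNA and DNA, and hnRNP A0 is known in mammals for binding AU-rich elements of inflammatory messenger RNAs. HNRNPK-c was 12.0 to 25.0 scaled CPM in control CTS against 7.22 to 16.4 in heated CTS, and 13.6 to 35.3 against 8.60 to 19.8 in BTS. Of the heated brains, 4 of 5 in CTS and 3 of 6 in BTS lay below all controls of their genotype. In F1, 1 of 9 did so, and 6 of 9 lay below the control median. For HNRNPA0, 3 of 9 heated F1 brains lay below the control median. The hnRNP features with the most reads moved little: hnrnpab had a log2 difference of -0.06 (SE 0.14), HNRNPU, a scaffold of nuclear matrix and chromatin, of -0.12 (SE 0.13), and HNRNPH1-b, named for a factor that binds G-rich runs, of -0.07 (SE 0.10).

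In muscle, 2 members were called, both lower in heated animals: HNRNPH1-a and HNRNPA0. The share called among all 12554 features was 0.757% (28 higher, 67 lower), so 2 of 32 members is a small count resting on features with few reads. Without regard to the threshold, 18 of 32 members were higher and 14 lower, with a median of 0.02, close to the whole table, where 51.8% of features were lower. At an unadjusted p under 0.05 there were 5 members, against 11.3% of all features. Of these 5, 4 were among the 6 members under a mean of 20 CPM in brain, and 1 was among the other 26.

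HNRNPH1-a in control CTS muscle was 0.136, 1.82, 2.59, 4.04 and 5.85 scaled CPM, and in heated CTS muscle 0.277, 0.741, 1.01, 1.27 and 1.83. Control BTS muscle had 0.472, 0.727, 2.73, 4.55 and 5.81, and heated BTS muscle ran from 0.462 through a median of 0.624 to 1.21. Control F1 muscle ran from 0.542 through 1.20 to 6.58 and heated F1 muscle from 0.363 through 1.37 to 2.12. The treatments overlapped in each genotype, since some controls were as low as the heated animals, but no heated library exceeded 2.12 scaled CPM. The averaged log2 difference was -1.33 (SE 0.33, adjusted p = 0.0347, edgeR). With a mean of 1.63 CPM in muscle, HNRNPH1-a lay close to the limit for members, which could favour a lower value in heat.

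HNRNPA0 followed the same course, at 0.363, 1.49, 4.37, 8.22 and 17.5 in control CTS and 0.741, 0.924, 2.69, 3.09 and 3.42 in heated CTS muscle. Control BTS muscle had 0.787, 2.00, 7.46, 13.9 and 15.1, heated BTS muscle ran from 1.39 through 2.06 to 4.40, control F1 from 0.880 through 2.39 to 12.8, and heated F1 from 0.748 through 2.06 to 4.94. Its averaged log2 difference was -1.38 (SE 0.36, adjusted p = 0.0455, edgeR). HNRNPK-e, next in p among the hnRNP members, had -1.30 (SE 0.42, adjusted p = 0.148) and did not pass. No heated library exceeded 4.94 scaled CPM of HNRNPA0, and all 5 heated CTS and all 6 heated BTS libraries lay below their control medians.

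Both calls depended on single animals. HNRNPH1-a lost its call without CTS controls 83, BTS controls 68 or 71, CTS heated 7, 13 or 76, or BTS heated 20, 53 or 78 (adjusted p from 0.0512 to 0.174 in those 9 of 21 fits). HNRNPA0 lost its call without any of these 9 animals or without CTS 14 or 57 or BTS 60, 75 or 90 (adjusted p from 0.0521 to 0.195 in those 14 fits). Both differences kept their sign in every such fit, between -1.46 and -1.16 for HNRNPH1-a and between -1.50 and -1.07 for HNRNPA0. With the summed ribosomal protein level of each library as a covariate and the shallow library left out they were -1.11 (adjusted p = 0.132) and -1.09 (adjusted p = 0.171), and without 6 muscle libraries that carried markers of epidermis or neurons or were shallow they were -1.32 (adjusted p = 0.0869) and -1.46 (adjusted p = 0.0756). In those libraries summed epidermis markers (4 of 7 listed genes found) reached 521 CPM in a control, against a control median of 3.61 CPM. The part of these cells in the result was not tested.

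**Figure D2:**
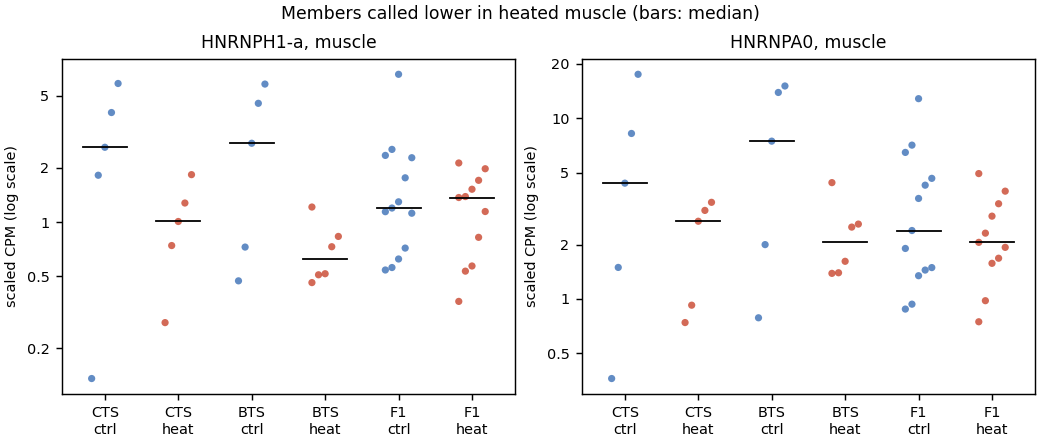
Scaled CPM on a log axis of HNRNPH1-a and HNRNPA0 in each muscle library of control (blue) and heated (red) animals; bars are medians. The control groups reach 6.58 (HNRNPH1-a) and 17.5 (HNRNPA0), the heated groups 2.12 and 4.94.

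The 8 features under a mean of 20 CPM in brain (HNRNPH1-a, HNRNPA0, HNRNPM-a, HNRNPK-c, HNRNPK-d, HNRNPK-e, SRSF4-b and SRSF11-a, a limit drawn after seeing the values) shared more than a low level. Across the 13 control F1 muscles, the 28 pairs among them had Pearson's r from 0.52 to 0.95 with a median of 0.85 on log2 levels, whereas among the other 26 members the median over 325 pairs was 0.27. In the 13 control F1 brains the medians were 0.21 for the 28 pairs and 0.40 for the other members. These correlations share the libraries and their scaling, and they are a description. The 6 of these features that are members in muscle were all lower in heated muscle, with a median log2 difference of -1.01. HNRNPK-e reached the mean of 1 CPM in muscle through the controls, with group means of 1.16 to 2.23 scaled CPM in controls and 0.539 to 0.968 in heated animals, so the limit favoured a lower value in heat. HNRNPH1-a and SRSF11-a lay next above it, at means of 1.63 and 1.65 CPM in muscle, where the limit could favour a lower value too. The 7 that are members in brain were all lower in heated brain, with a median of -0.56. HNRNPK-e and HNRNPM-a lay close to the limit of 1 CPM in brain, at means of 1.28 and 1.32 CPM. There too the limit could favour a lower value in heat. The other 26 members had medians of 0.04 in muscle and -0.07 in brain. Levels of these features also varied most, with a median coefficient of variation over libraries of 98.2% in muscle against 28.5% for the other members. The set was drawn by brain levels, and some other members had few reads in muscle without such a spread. SRSF12, at a mean of 4.49 CPM there, had 34.1%, and Hnrnpr, at 8.25 CPM, had 23.3%.

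The 2 features named for hnRNP H1 can be set side by side. In muscle, HNRNPH1-b had a log2 difference of 0.05 (SE 0.083) where HNRNPH1-a had -1.33. The log2 ratio of HNRNPH1-a to HNRNPH1-b in BTS muscle was -5.44 ± 1.30 (n = 5) in controls and -6.86 ± 0.38 (n = 6) in heated animals, an exact permutation p of 0.0519 and an adjusted p of 0.208, which does not pass. In CTS muscle the means were -5.68 ± 1.65 and -6.72 ± 0.65 (n = 5 each, exact permutation p = 0.230). HNRNPH1-a had few reads in some muscle libraries, so the prior count, and with it scaling, weighs more on this ratio.

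CIRBP had no call in muscle either. Control CTS muscles had 322, 330, 425, 454 and 466 scaled CPM, heated ones 330, 348, 361, 557 and 569. Control BTS muscles had 304, 373, 383, 436 and 810, heated ones from 274 through a median of 395 to 549, control F1 from 284 through 371 to 665 and heated F1 from 310 through 487 to 665. The log2 difference was 0.04 (SE 0.14, adjusted p = 0.971), and its sign turned to -0.02 with library totals in place of TMM, so no direction is given. srsf3-a and srsf3-b differed by -0.21 (SE 0.15) and -0.11 (SE 0.13) in muscle, and neither passed. The SR features with the smallest p in muscle were srsf11-b, at 0.31 (SE 0.12, adjusted p = 0.303), SRSF4-b, at -0.62 (SE 0.32, adjusted p = 0.463), and SRSF7, at -0.21 (SE 0.15, adjusted p = 0.624). For the hnRNP features with the most reads the log2 differences were 0.09 (hnrnpab), 0.04 (HNRNPK-b) and 0.03 (HNRNPU), and for the SR features 0.14 (SRSF4-a), -0.07 (SRSF9-a) and 0.08 (SRSF9-b). In bulk tissue, fewer cells of a type and less RNA per cell cannot be told apart in any of these differences.

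**Figure D3:**
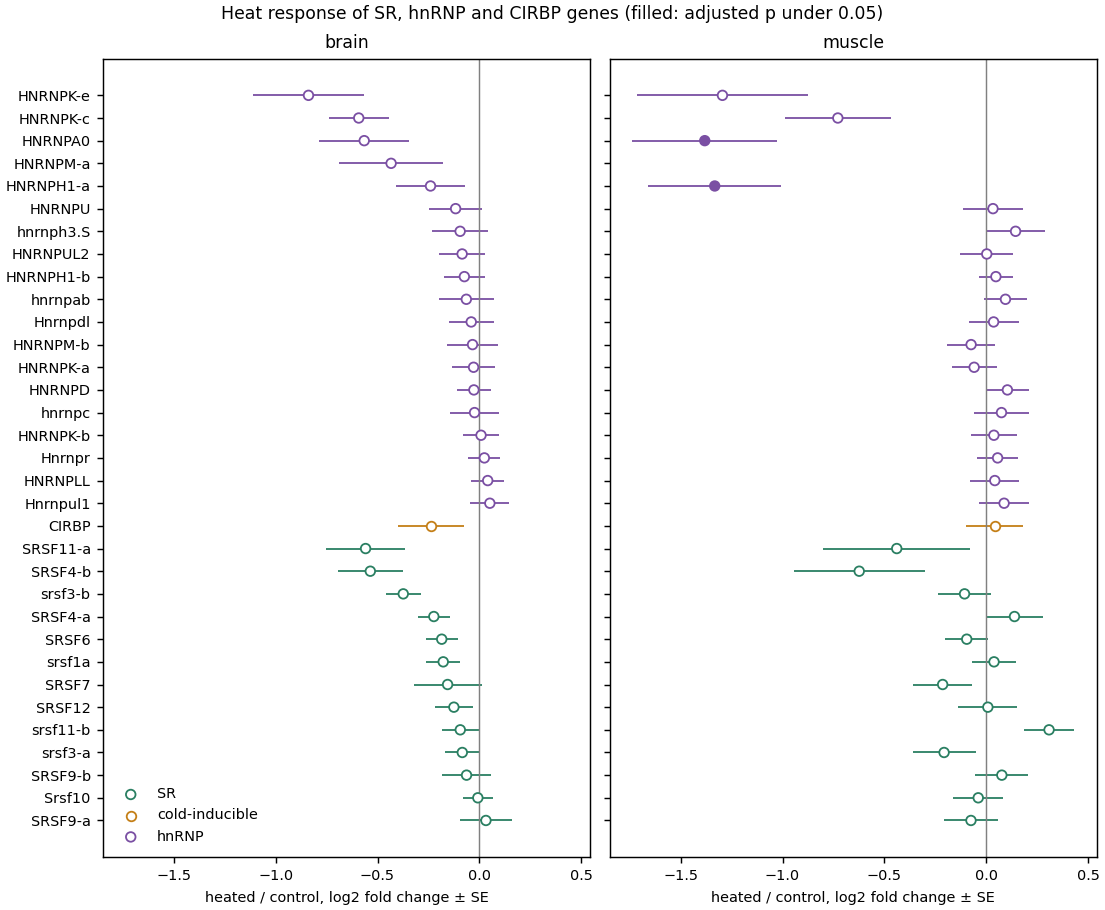
Log2 fold change of heated over control animals with its SE (horizontal axis), averaged over CTS, BTS and F1, for each member in brain and muscle, coloured by family; filled points have an adjusted p under 0.05. In brain 28 of 33 members lie left of 0 with none filled, and in muscle HNRNPH1-a and HNRNPA0 are filled at -1.33 and -1.38.

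Within single genotypes no member was called in either tissue by edgeR or DESeq2. The shares called among all features were 0% in CTS brain, 0% in BTS brain and 0.0516% in F1 brain, and 0.39% in CTS muscle, 0.0159% in BTS muscle and 0.119% in F1 muscle. At an unadjusted p under 0.05 there were 7 members in CTS, 2 in BTS and 2 in F1 brain, of 33, where the shares of all features were 3.50%, 5.39% and 5.63%. In muscle there were 2 in CTS, 3 in BTS and 1 in F1, of 32, where the shares of all features were 15.0%, 5.81% and 10.5%. Of the 7 in CTS brain, 5 were among the members under a mean of 20 CPM in brain. So were the 2 in CTS muscle and the 3 in BTS muscle. In brain, 28 of 33 members were lower in heated CTS (median -0.16), 28 in heated BTS (median -0.20) and 15 in heated F1 (median 0.02). In muscle, 18 of 32 members were lower in heated CTS, 23 in heated BTS and 12 in heated F1, where 53.2%, 52.4% and 49.7% of all features were lower. The test of the difference itself called no member by edgeR or DESeq2. For F1 against the mean of the parents, 0% of all features were called in brain and 0.00797% in muscle. This contrast had an unadjusted p under 0.05 for 2 of 33 members in brain and 3 of 32 in muscle, against 7.75% and 12.0% of all features. In it 29 of 33 members were higher in brain and 28 of 32 in muscle, where 51.7% and 48.4% of all features were lower. The same control animals enter the contrast of F1 with the parents in controls, given below, so the 2 are not independent. For BTS against CTS, 0% of all features were called in brain and 0.0398% in muscle. It had 1 member with an unadjusted p under 0.05 in brain and none in muscle, against 2.11% and 9.90% of all features. srsf3-b had log2 differences of -0.37 (SE 0.17) in CTS, -0.45 (SE 0.16) in BTS and -0.31 (SE 0.12) in F1 brain. In CTS brain the differences were -0.95 (SE 0.30) for HNRNPK-c, -1.28 (SE 0.44) for HNRNPA0 and -0.99 (SE 0.38) for SRSF11-a, none of which passed.

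The difference of the heat response between tissues, muscle minus brain, called no member either, against 0.203% of all 16288 features. Of 32 members 3 had an unadjusted p under 0.05, as did 7.79% of all features, and DESeq2 called none. The same held with the animal as a block.

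Other genes of the splicing pathway were read from lists drawn up by function. Of 30 tested features of the core spliceosome (25 of 38 listed genes found), none was called in brain or muscle, and the medians were -0.06 and 0.03. In heated brain 21 of 30 were lower, and 5 had an unadjusted p under 0.05. By genotype, 22 were lower in heated CTS brain, 21 in BTS and 11 in F1. For the heat response of F1 against the mean of the parents, 23 of 30 were higher in brain and 13 of 30 in muscle. Lower values in heated CTS and BTS brain were thus not particular to the members. In brain SNRPA1 of the U2 snRNP was at -0.42 (adjusted p = 0.549). In muscle the smallest p were those of LUC7L3 at 0.60 and LUC7L at -1.07 (adjusted p = 0.261 and 0.265), both homologues of a yeast U1 component. Among other splicing regulators, 0 of 46 were called in brain, where 28 were lower and 7 had an unadjusted p under 0.05. There TRA2B, an SR-like activator, was at -0.30 and NONO, a paraspeckle protein, at -0.57 (adjusted p = 0.364 and 0.441). In muscle 1 of 42 was called, TIA1, a stress granule protein, at -2.17 (SE 0.50, adjusted p = 0.0272, edgeR). It had at most 1.83 scaled CPM in control CTS, 2.38 in control BTS and 0.940 in control F1 libraries. Heated libraries had at most 0.458 in CTS, 0.155 in BTS and 0.423 in F1. At such levels TIA1 passed the filter on low counts through control libraries, which favoured a lower value in heat. The call is therefore not read as an effect of heat, and how far it rests on the filter was not tested. TIA1 lost its call without CTS heated 7, BTS control 68 or CTS control 83 (adjusted p from 0.0597 to 0.147). RBFOX2, a regulator of muscle exons, was at 0.33 and did not pass (adjusted p = 0.0765).

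The kinases of SR proteins and the phosphatase genes listed with them gave 0 of 11 calls in brain and 1 of 12 in muscle. Of the 11 in brain, 5 were lower and 6 higher in heated animals, and 3 had an unadjusted p under 0.05. In brain the 2 with the smallest p were CLK4 at -0.35 (SE 0.094, adjusted p = 0.222) and CLK2 at -0.39 (SE 0.11, adjusted p = 0.276), kinases that phosphorylate SR proteins in the nucleus. CLK4 in F1 brains ran from 231 through a median of 327 to 366 scaled CPM in controls and from 164 through 238 to 281 in heated animals. In BTS brains CLK4 overlapped, at 209 to 310 in controls and 164 to 306 in heated animals. In CTS brains CLK4 ran from 311 to 386 in controls and from 204 to 300 in heated animals, with no overlap. Separation of this kind was not counted over all features. In muscle PPP1R10, a regulatory subunit of protein phosphatase 1, rose by 0.71 (SE 0.17, adjusted p = 0.0304), from a median of 9.67 scaled CPM in control F1 to 15.6 in heated F1. That call was lost without CTS animals 7, 14, 63 or 83 or BTS animals 38, 68 or 90 (adjusted p from 0.0504 to 0.141). DYRK1A, next in p, was at 0.15. Genes of nonsense-mediated decay and RNA export had 0 calls among 10 tested in brain, with ALYREF, an export adaptor, at -0.23 and SMG1, a kinase of decay, at 0.15. They had 0 calls among 9 in muscle, where UPF1, the helicase of decay, was at 0.21.

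Between the parental species, the SR feature with the most reads was the one that differed most clearly. In control brains SRSF4-a was 186, 260, 281, 312 and 332 scaled CPM in CTS and 322, 352, 434, 441 and 453 in BTS, touching only at the edge. In control muscle it was 45.3, 60.6, 67.2, 68.5 and 101 in CTS and 141, 147, 195, 245 and 282 in BTS, with no overlap. BTS exceeded CTS by 0.60 on the log2 scale in brain (SE 0.16, adjusted p = 0.00519, edgeR) and by 1.69 in muscle (SE 0.29, adjusted p = 1.75e-05), and both calls held in all 21 fits that left out 1 animal. The heated animals, which that contrast did not use, were ordered alike, from 178 to 233 in CTS and 315 to 415 in BTS brain and from 62.3 to 73.2 in CTS and 177 to 326 in BTS muscle. SRSF4 protein is an SR protein that can repress as well as activate exons. The feature SRSF4-b was also higher in BTS muscle, by 1.79 (SE 0.63, adjusted p = 0.0275), at 2.05, 3.18, 12.7, 17.2 and 18.4 scaled CPM against 1.09, 1.77, 2.59, 4.85 and 5.25 in CTS. This call was lost without CTS 63, 66 or 77 or BTS 68 or 71 (adjusted p from 0.0585 to 0.0879).

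Srsf10, named for an SR protein that in mammals turns into a general splicing repressor when dephosphorylated on heat shock, was the other SR gene called in both tissues. It was 36.9, 38.3, 41.5, 42.1 and 43.9 scaled CPM in control CTS brains and 44.8, 52.0, 52.8, 59.0 and 60.8 in control BTS brains, without overlap. In control muscle it was 5.03, 6.54, 6.74, 8.60 and 10.3 in CTS and 8.66, 9.27, 9.77, 15.8 and 25.2 in BTS. BTS was higher by 0.43 in brain (SE 0.14, adjusted p = 0.0275) and by 0.88 in muscle (SE 0.24, adjusted p = 0.00506). Heated brains again did not overlap, at 37.3 to 44.3 in CTS and 50.6 to 64.6 in BTS, and neither did heated muscles, at 5.50 to 8.66 and 9.93 to 16.4. The brain call was lost with DESeq2 (0.31, adjusted p = 0.0748), with RLE scaling (0.31, adjusted p = 0.112), and without CTS 63 or 77 or BTS 69 or 71 (adjusted p from 0.0557 to 0.0755), and the muscle call was lost without BTS 71 (0.48, adjusted p = 0.132). Over all libraries Srsf10 had Pearson's r of 0.50 in brain and 0.65 in muscle with the summed ribosomal protein level. That level was higher in BTS, with control medians of 16283 CPM against 13955 in CTS brain and 17010 against 8839 in CTS muscle. Heated medians were 16298 against 7302 CPM in brain and 12772 against 7957 in muscle. These values are a description. Heat itself left Srsf10 nearly level, at -0.01 (SE 0.072) in brain and -0.04 (SE 0.12) in muscle.

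In all, 2 of 33 members in brain and 3 of 32 in muscle were called between control BTS and CTS, each time higher in BTS, against 19.1% of all features in brain and 28.8% in muscle. In these fits the members thus stood below the background share, but the count in brain depended on the processing, as given below. Over all features, the number whose ranges did not overlap between the species was not counted. How well each species' reads match the reference used for counting is not given in the sources used here, and its part in these differences was not tested.

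**Figure D4:**
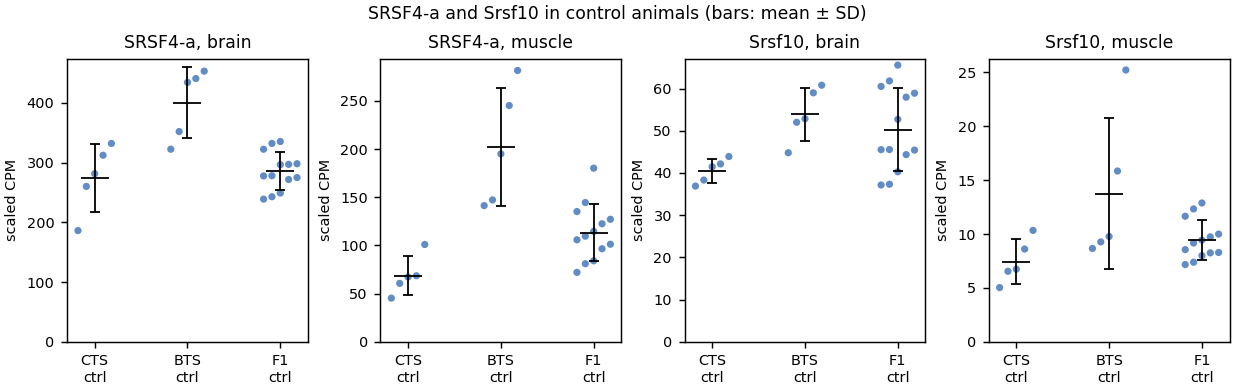
Scaled CPM (from 0) of SRSF4-a and Srsf10 in control CTS, BTS and F1 libraries of brain and muscle; bars are mean ± SD. In muscle, SRSF4-a spans 45.3 to 101 in CTS and 141 to 282 in BTS, with F1 from 72.0 to 180.

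In F1 controls, SRSF4-a was 286 ± 31.8 scaled CPM (SD, n = 13) in F1 brain, next to 274 ± 56.6 (n = 5) in CTS and 400 ± 59.1 (n = 5) in BTS, and in F1 muscle it was 113 ± 29.3, between 68.5 ± 20.4 in CTS and 202 ± 61.1 in BTS. Against the mean of the parents its log2 difference was -0.23 (SE 0.10, adjusted p = 0.449) in brain and -0.13 (SE 0.19) in muscle. No member was called in this contrast, against 0.768% of all features in brain and 1.05% in muscle, and DESeq2 called none. In brain 28 of 33 members were lower in F1, with a median of -0.10, where 45.6% of all features were lower. At an unadjusted p under 0.05 there were 7 members, against 9.45% of all features. Of these, 6 were among the 7 members under a mean of 20 CPM in brain, and 1 was among the other 26. Those with such a p included SRSF4-b at -0.69 (adjusted p = 0.117), SRSF11-a at -0.80 (0.158), HNRNPA0 at -0.86 (0.203) and HNRNPK-c at -0.52 (0.282). HNRNPA0, for one, was 4.35 ± 2.01 scaled CPM (n = 13) in F1, 7.40 ± 3.21 in CTS and 8.25 ± 4.86 in BTS (n = 5 each). In muscle 24 of 32 members were lower, against 48.2% of all features, and 1 had such a p, against 11.4%.

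Sex had no called member, against 0.0645% of features in brain and 0.558% in muscle. At an unadjusted p under 0.05 there were none of 33 members in brain and 4 of 32 in muscle, against 4.30% and 10.1% of all features. The lowest was that of SRSF12, at -0.47 for males against females in muscle (SE 0.16, adjusted p = 0.197). CIRBP stood at -0.31 for males in brain (SE 0.17, adjusted p = 0.998).

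Between tissues, the direction of many members depended on how libraries were scaled. In the fit with all libraries 23 of 32 members were called lower and 2 higher in control muscle than in control brain, against 86.1% of all features called, of which 19.1% were higher. Leaving out the 2 shallow libraries turned this into 9 lower and 11 higher, with 41.6% of called features higher, and the median over all features moved from -1.39 to -0.34. Relative to that median the members lay 0.39 higher in the first fit and 0.40 in the second, but 0.03 higher with a strict filter on low counts, where 16 of 31 members lay above it. Over 10 fits, 7 members were called lower in muscle each time, namely HNRNPU, HNRNPUL2, Hnrnpul1, HNRNPM-b, HNRNPH1-b, Hnrnpdl and srsf1a, whereas 10 members were called higher in some and lower in others. Neither count was made over all features, of which 11340 of 16288 were called lower in the fit with all libraries. HNRNPUL2, a relative of hnRNP U, had a log2 difference of -1.87 (SE 0.15) with all libraries and of -0.79 (SE 0.13) without the shallow ones. The values were -1.79 and -0.73 for HNRNPM-b, -1.63 and -0.56 for Hnrnpul1, -1.62 and -0.55 for srsf1a, -1.57 and -0.49 for Hnrnpdl, and -1.55 and -0.49 for HNRNPH1-b. The highest adjusted p among these 12 edgeR values was 8.28e-06. HNRNPK-e at 0.997 and HNRNPA0 at 0.76 were the members called higher in muscle, with adjusted p of 0.0165 and 0.0306, and both turned negative under library totals, at -0.04 and -0.32. Both calls were lost without BTS 71 (adjusted p = 0.136 and 0.0977), and that of HNRNPA0 also without CTS 57 or 83 or BTS 60 (adjusted p from 0.0511 to 0.0662). SRSF4-a was called with all libraries at -0.37 and without the shallow ones at 0.71. CIRBP was at -1.36 (adjusted p = 1.24e-12) and at -0.28 (adjusted p = 0.0567).

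Some members followed the level of ribosomal protein genes in a library. SRSF7, which promotes export of messenger RNA, had no brain library between 93.8 and 111 scaled CPM: 14 libraries lay at 53.7 to 93.8 and 29 at 111 to 164. The lower range held 8 heated and 6 control libraries, 4 of CTS, 2 of BTS and 8 of F1. Its summed ribosomal protein levels (63 features) ran from 5849 to 10942 CPM, against 11184 to 23190 CPM in the upper range. The 2 ranges were split at the widest gap in unlogged scaled CPM. The lower one has a gap of its own, from 70.0 to 83.7, which is the wider of the 2 gaps on the log scale. The split thus depends on the scale. Pearson's r between the log2 levels of SRSF7 and ribosomal protein genes was taken within each range. It was 0.80 in the lower and 0.45 in the upper range. In 45 muscle libraries, which were not split, r was 0.78 and Spearman's rho 0.79. There 1 heated F1 library, of animal 67, lay apart at 80.6 scaled CPM, above the next highest at 50.3. Over all 43 brain libraries SRSF9-a and SRSF9-b had r of 0.82 and 0.90, and Hnrnpul1 had r of -0.79. HNRNPK-a had r of 0.88 and HNRNPK-b of 0.72, whereas SRSF4-a had 0.19 and srsf1a 0.21. Of 33 members in brain, 9 had r above 0.5, namely 5 SR and 4 hnRNP features, and 2 had r below -0.5. The share of all features with such r was not counted, so whether this is particular to the members was not tested. These points share a library and its scaling, and what set the ribosomal protein level of a library was not tested. SRSF7 itself had a heat difference of -0.16 in brain (SE 0.17, adjusted p = 0.951).

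**Figure D5:**
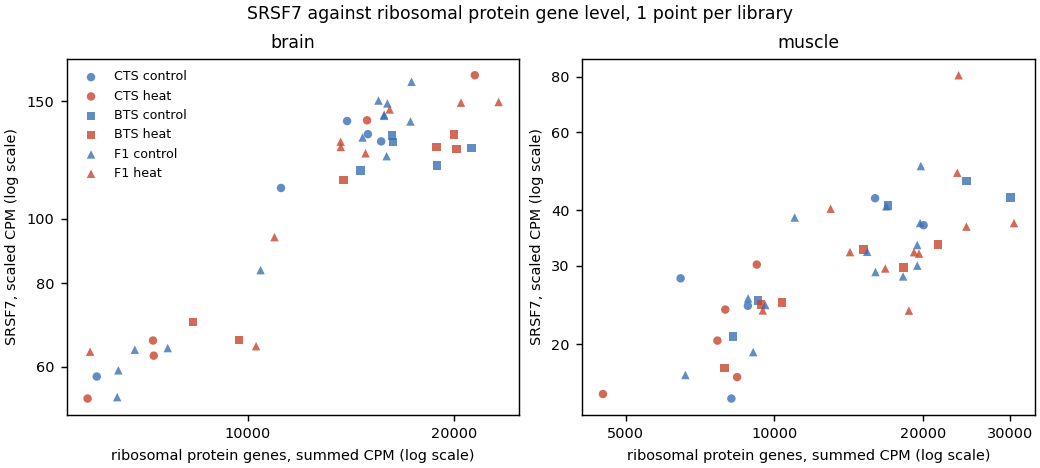
SRSF7 in scaled CPM against summed CPM of ribosomal protein genes, both on log axes, with 1 point per brain or muscle library, marked by genotype and coloured by treatment. Split at the widest unlogged gap, the brain points form 14 libraries up to 93.8 and 29 libraries from 111 scaled CPM, with control and heated animals in both. On the log axis the gap from 70.0 to 83.7 is wider.

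Finally, CIRBP, srsf3-a and srsf3-b were set against hsp90aa1.1 among heated F1 animals, to ask whether animals with a stronger chaperone response differed in these genes. In brain (n = 9), Pearson's r with log2 hsp90aa1.1 was -0.18 for CIRBP (exact permutation p = 0.646), -0.01 for srsf3-a (p = 0.973, exact) and -0.21 for srsf3-b (p = 0.593, exact), and Spearman's rho was 0.02, -0.05 and -0.27 (exact p = 0.982, 0.912 and 0.49). In muscle (n = 11) r was 0.42 for CIRBP (permutation p = 0.215), -0.53 for srsf3-a (permutation p = 0.0969) and -0.25 for srsf3-b (permutation p = 0.446), and rho was 0.25, -0.46 and -0.15 (permutation p = 0.451, 0.155 and 0.656). After adjustment over these 6 relations the smallest p was 0.581 for r and 0.928 for rho. Without the 2 animals farthest from the median of hsp90aa1.1, r in brain was 0.37, 0.55 and 0.32, and in muscle 0.15, -0.30 and -0.24. No relation passed, and the sign of r in brain turned without those 2 animals.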

How the data were processed

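Per the labels, RNA from whole brain and leg muscle was extracted with a TRIzol and PureLink protocol and made into stranded poly(A) libraries (Kapa) read as 100 bp single reads. Per the submitters' processing notes, Trimmomatic, FastQC, STAR and HTSeq were used, whereas no version, genome build or strand setting is named. The deposited values are whole-number counts of reads per gene in 1 table a tissue, with no normalization by the authors. Genotypes follow the genotype tags. The titles of animals 76, 12, 26, 30 and 84 name another genotype (BTS for 76, tagged CTS; BTS or F1 for the others, tagged as backcrosses). Libraries were matched to animals by title: 48 brain and 50 muscle libraries of 99 samples in the labels, the brain of F1 animal 17 not being analysed here.

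Tests used edgeR 4.0.16 (R 4.3.3): TMM scaling, filterByExpr on groups, a quasi-likelihood fit with 1 mean for each genotype and treatment and a sex term, fitted to every compared library of the tissue (CTS, BTS, F1), and Benjamini-Hochberg adjustment over all features tested, with 0.05 as threshold. The averaged heat response weights the 3 genotypes equally. SE is the log2 fold change divided by the square root of F. Muscle and brain were compared in 1 fit over both. Same-numbered brain and muscle libraries come from the same animal, per their titles; deviations of the 2 tissues correlated with a mean r of 0.165 over 40 animals, against -0.00376 between different animals. Ratios and relations used log2 CPM with a prior count of 2 (SciPy 1.17.1) and exact or 100000-draw permutation tests, two-sided. The steps were tested on simulated data drawn from these counts: of 50 genes lowered by 1 on the log2 scale, 90.0% were called in brain (15267 genes) and 94.0% in muscle (12356 genes), and of 50 lowered by 0.5, 64.0% and 46.0%. The changed genes were drawn only from those above a limit on mean CPM. These shares therefore do not cover features below it, such as HNRNPH1-a and HNRNPA0 in muscle. In each simulation 50 genes were changed at each of -1, -0.5, 0.5 and 1, with the same means and heat effects in every genotype. So many changed genes ease the adjusted threshold, whereas the heat tests of the real counts called 15 features in brain and 95 in muscle. The shares could thus be too high for these data.

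Named were CIRBP and SRSF3 features, up to 6 called members a direction and contrast, the 3 SR and 3 hnRNP features with the smallest p for the averaged heat response and the 3 of each with most reads. Of the pathway lists, called genes and the 2 with the smallest p were named, apart from results that are not reported here, and features with few reads, SRSF7 and the pairs of same-named features were chosen after their values were seen. Members and lists were chosen with earlier results of these data known. Alternatives were DESeq2 1.42.0, RLE, upper quartile and no scaling, other filters, no sex term, and leaving out libraries.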

Additional observations from a re-analysis of the deposited data

Results flagged for a closer look

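Among 72 groups of 4 to 10 libraries tested, 2 values lay far from the rest of their group by Dixon's test, which chance does in about 1 of 20 groups. These 2 flags are thus fewer than chance alone would give. Both belonged to the muscle of 1 control BTS animal, number 71. CIRBP was 810 scaled CPM there, against 436 in the nearest of the other 4 libraries. The feature srsf3-b was 19.2 scaled CPM in the same library, against 9.68 in the nearest. Leaving out this animal took the call from Srsf10 and SRSF4-b between the species in muscle, as given above. It also took the call from HNRNPH1-a and HNRNPA0 under heat, and from HNRNPK-e and HNRNPA0 between tissues. Other animals had such an effect too: over 21 fits that each left out 1 animal, HNRNPH1-a kept its heat call in 12 and HNRNPA0 in 7. Whether this library stands apart beyond chance was not tested.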

How the results depend on the processing

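Between control BTS and CTS brains 2 members were called, against 4 with DESeq2, 1 with no filter on low counts, 8 with the ribosomal protein level as covariate and 1 to 2 when 1 animal was left out. Of all features, 3346 of 15496 were called with DESeq2, 3048 of 21630 with no filter and 3563 of 15497 with the ribosomal covariate. With that covariate the members thus did not stand below the background share. In muscle leaving out 1 animal gave 2 to 4. For heat in brain no member was called by edgeR, against 2 with DESeq2 and 1 each with RLE scaling, upper quartile scaling, library totals, the ribosomal covariate, and without the shallow library, animal 64, both, or both and animal 7, and 0 to 1 when 1 animal was left out. Of all features, DESeq2 called 34 of 15496, and the named fits with 1 call each called 16 to 24. For heat in muscle 2 were called, against 0 with a strict filter, without animal 76, with the ribosomal or the short-to-long transcript covariate, and without 6 muscle libraries, 1 without the shallow library, without it and animal 64 or without the sex term, and 0 to 2 when 1 animal was left out. Of all features, 19 of 10101 were called there with the strict filter and 96 of 12552 without the shallow library. Between sexes in muscle 1 was called with the ribosomal covariate and 1 without the 6 libraries. The shares of all features in those fits are not given, and with all libraries 0.558% were called. Leaving out 1 animal gave 23 to 27 calls between tissues, where 86.1% of all features were called with all libraries. The median heat response of the members then ran from -0.11 to -0.05 in brain and from -0.01 to 0.04 in muscle.

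The sign turned for CIRBP in heated muscle with library totals (-0.0153) and without 1 animal (range over those fits -0.0119 to 0.124, negative without CTS 13 or BTS 74 or 75), and between tissues with library totals for HNRNPK-e (-0.0438) and HNRNPA0 (-0.317). With the animal as a replicate block 26 members were called between tissues and 0 for the difference of the heat response. In the same animals without the block there were 25 and 0, and with all libraries 86.1% of all features were called between tissues. The cause of these changes was not tested. Covariates, the 6 libraries left out and upper quartile scaling without the shallow library were chosen after seeing the data. Upper quartile scaling with all libraries could not be fitted in brain or over both tissues, because over 3 in 4 features are at 0 in the shallow brain library. Depth limits the features with few reads most.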

Other observations

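The backcross animals, too few for a test, gave these levels. The brain of the control BTS backcross had 3557 CPM of CIRBP, and the 2 heated BTS backcrosses had 1401 and 1347. For srsf3-b the same brains had 59.1, 40.8 and 35.5 CPM, and for SRSF4-a 468, 288 and 258 CPM. The heated CTS backcross had 1540 CPM of CIRBP, 60.6 of srsf3-b and 195 of SRSF4-a in brain. In muscle CIRBP was 323 CPM in the control BTS backcross, 560 and 596 in the heated ones and 552 in the heated CTS backcross, and HNRNPA0 was 4.98, 1.32, 0.579 and 1.95 CPM in the same order.

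For the difference of the heat response between tissues, the members with the smallest p were HNRNPH1-a at -1.09 (SE 0.36, adjusted p = 0.257) and srsf11-b at 0.39 (SE 0.16, adjusted p = 0.49), by edgeR, and neither passed.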
